A study of Arabidopsis thaliana with 45 samples.

Results

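Polysomal RNA was set against total RNA in non-dormant Arabidopsis thaliana seeds after 24 h in water, using the 3 arrays titled as polysomal and the 3 titled as total RNA of that condition, 6 of the 45 arrays of the series. All 27827 probe sets were compared, each named by its locus. The seeds were of NILDOG1-Cvi, a near-isogenic line in the Landsberg erecta background, so every group discussed here carries the Cvi allele of DOG1 (DELAY OF GERMINATION 1), a major determinant of seed dormancy. Beside the compared arrays, 3 other conditions of the same line served for tests of the difference: non-dormant seeds at 6 h in water (3 polysomal and 3 total RNA arrays), dormant seeds at 24 h in water (2 and 3 arrays) and non-dormant seeds at 24 h in cordycepin (2 and 3 arrays), a transcription inhibitor. Per the labels each replicate was a bulk of 8 plants from a randomized block design, and RNA came from whole seeds, with embryo, endosperm and seed coat together. The labels' treatment protocol speaks of dry seeds and their molecule field of total RNA for every array. The titles and characteristics, which give imbibition and RNA type, were followed. The sources used here do not say by what means seeds were made non-dormant.

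Polysomes are messenger RNAs that carry several ribosomes at once, and the share of a transcript found in them is widely used as a measure of how actively it is translated. A dry seed holds stored messenger RNAs made during maturation, and translation resumes within hours of water uptake, which seeds need in order to germinate. Transcripts that seldom meet cytosolic ribosomes, such as small nuclear and nucleolar RNAs and those made inside mitochondria and plastids, are known to be scarce in cytosolic polysomes. The values are log2 levels that were scaled array by array, so a difference of 0 between polysomal and total RNA means that a transcript was loaded like the average one, not that its amount was equal.

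The arrays of each RNA type resembled each other more than they resembled the other type. Across probe sets the 3 polysomal arrays correlated at 0.975 to 0.984 with each other and the 3 total RNA arrays at 0.983 to 0.985, while pairs of a polysomal and a total RNA array gave 0.949 to 0.967. The mean SD between replicates was 0.300 in polysomal RNA and 0.248 in total RNA. No array stood apart from its group by these measures. The tissue label was borne out by seed storage transcripts, which were bright: CRU3, a 12S cruciferin, averaged 10.95 ± 0.21 in polysomal RNA and 11.56 ± 0.12 in total RNA (log2, SD, n = 3 each).

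Of the 27827 probe sets, 4123 (14.8%) passed limma's moderated test at an adjusted p under 0.05, 1898 of them (6.82%) higher and 2225 (8%) lower in polysomal RNA. The median difference over all probe sets was 0.04 (log2, polysomal minus total), and single differences ran from -5.52 to 2.14. Differences of at least 2-fold were mostly falls: 335 called probe sets were at least 2-fold higher and 1357 at least 2-fold lower. The 3 polysomal arrays did not overlap the 3 total RNA arrays at 9445 probe sets (33.9%), among them 3934 of the 4123 called. The split between rises and falls moved with the processing, from 46% higher as given to 57.9% when each array was centred on its median. It was 33.3% with the compared arrays only and 62.9% with dim probe sets, those under the median mean, left out. The number called fell to 2231 without total RNA replicate 2 and to 2713 without polysomal replicate 3. In whole seeds, fewer ribosomes on a transcript in every cell and a transcript in tissues with fewer polysomes cannot be told apart.

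**Figure D1:**
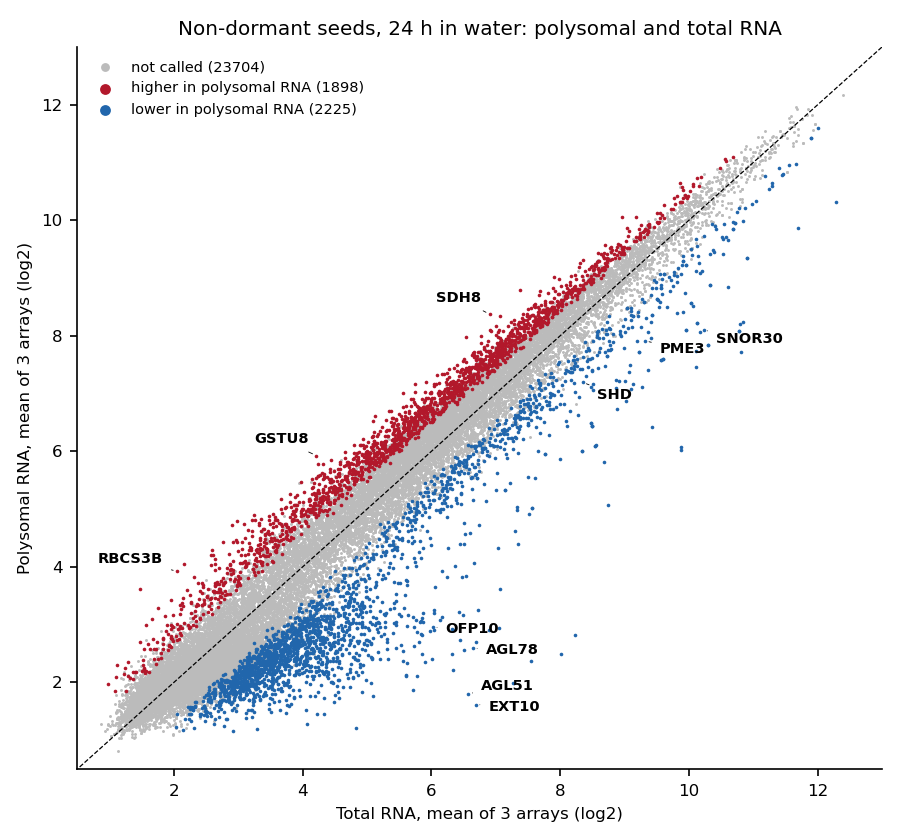
Mean log2 level of each of 27827 probe sets on the 3 total RNA arrays (x axis) and the 3 polysomal arrays (y axis), non-dormant seeds, 24 h in water. Red points are the 1898 called higher in polysomal RNA, blue points the 2225 called lower, and grey points were not called. The red points run along the dashed line of equal values over nearly the whole range, whereas most blue points gather below it at total RNA levels of about 3 to 5 and polysomal levels of about 2 to 3.

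The level of a transcript went along with the direction of its difference. Ranked by mean level over all 45 arrays and divided into 5 bins of equal size, the share called higher was 1.80% in the dimmest bin, then 3.27%, 5.80%, 10.3% and 12.9% in the brightest. The share called lower, in the same order, was 1.37%, 11.0%, 15.7%, 5.50% and 6.50%, greatest in the middle bin. The brightest bin had a median difference of 0.17. This trend was not taken out of the list counts below, which are set against all probe sets. Of the 1357 probe sets at least 2-fold lower, 684 had a polysomal mean of at most 2.62, within the lower quartile of the arrays, and 8 had their total RNA mean there. For those the size of the fall depends on how the arrays read the dimmest probe sets. The lower quartile was 2.24 to 2.49 on the polysomal arrays and 2.52 to 2.62 on the total RNA arrays. After quantile normalization over all arrays 904 probe sets were at least 2-fold lower. Among the 335 at least 2-fold higher, 4 had the polysomal mean and 43 the total RNA mean that low. Gene span on the reference assembly was also related to direction: of protein-coding genes in the shortest of 5 bins (up to 1202 bases) 11.3% were lower and 3.30% higher, against 5.38% lower and 7.65% higher in the longest bin (from 3348 bases). Over 26486 protein-coding genes the rank correlation of span with the difference was 0.0967, a weak relation across genes, which are not independent.

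The largest falls among genes with a symbol were transcripts clearly present in total RNA and near the bottom of the scale in polysomal RNA. EXT10, an extensin of the cell wall, read 1.17, 1.44 and 2.25 on the polysomal arrays, against 6.54, 6.95 and 6.57 on the total RNA arrays. No polysomal array came within 4 log2 units of a total RNA array, and the difference was -5.07 ± 0.29 (SE) (adjusted p = 6.42e-15). No fold is given, since the polysomal mean lies within the lower quartile of the arrays. A second extensin gene, EXT6, read 1.13, 1.22 and 1.28 in polysomal RNA, against 4.28, 5.52 and 4.69 in total RNA. AGL51, of the MADS-box transcription factor family, read 2.25, 1.17 and 1.996 on the polysomal arrays, against 6.35, 6.99 and 6.38 on the total RNA arrays. Both were low on all 3 polysomal arrays, with differences of -3.62 ± 0.44 for EXT6 (adjusted p = 2.67e-07) and -4.77 ± 0.48 for AGL51 (adjusted p = 3.72e-09). The other symbol genes among the 15 largest falls were the MADS-box gene AGL78 (-4.05 ± 0.35), the purine permease PUP4 (-3.08 ± 0.29), the ovate family genes OFP10 (-3.07 ± 0.33) and OFP12 (-2.61 ± 0.46), the oleosin-like pollen coat gene GRP17 (-2.99 ± 0.29), the Pumilio RNA-binding gene PUM18 (-2.88 ± 0.50), the spliceosomal RNA U12, the receptor-like gene RLP28 (-2.84 ± 0.37), the ammonium transporter AMT1;2 (-2.82 ± 0.32), the glycine-rich gene GRP9 (-2.78 ± 0.50), the floral zinc finger gene KNU (-2.72 ± 0.30) and the lipase GLIP1 (-2.60 ± 0.39). All 15 kept their call with each of the 6 arrays left out in turn. Falls of like size were measured at 6 h: in non-dormant seeds EXT10 differed by -5.68, AGL51 by -4.69 and AGL78 by -4.099. The largest fall of all, -5.52, was at AT2G11778, a protein-coding locus with no symbol.

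Small structural RNAs, which are not translated, were lower in polysomal RNA. The classes of longer non-coding transcripts had medians near the average, with more members called lower than higher. Small nucleolar RNAs, which guide modification of ribosomal RNA in the nucleolus, had a median difference of -1.02 over 68 probe sets, and 33 of them were called lower, against 8% of all probe sets. Among 61 transfer RNA probe sets the median was -0.55 and 18 were lower. The 13 small nuclear RNAs, the RNA parts of the spliceosome, had a median of -0.42, and 5 were lower, of which U4.2 and U2.5 each lost their call in 5 of the 6 fits without 1 array. Primary transcripts of microRNAs differed less: of 174 probe sets 10 were lower and 1 higher, with a median of 0.06, and 63 of the 174 had a mean above the lower quartile of the arrays in either RNA type. Long non-coding RNAs held 16 lower and 8 higher of 222, and other non-coding RNAs 20 lower and 3 higher of 165. Of all probe sets 8% were lower and 6.82% higher. Probe sets with a mean above that quartile numbered 64 of 68 nucleolar, 45 of 61 transfer and 8 of 13 nuclear RNAs. Among long and other non-coding RNAs they numbered 187 of 222 and 91 of 165. The class medians therefore rest in part on dim probe sets. Per the labels the arrays were hybridised with cRNA made with a labelling kit for 3′ ends, which primes on poly(A) tails. How much of the RNAs that mostly lack such tails the labelling reached was not tested.

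**Figure D2:**
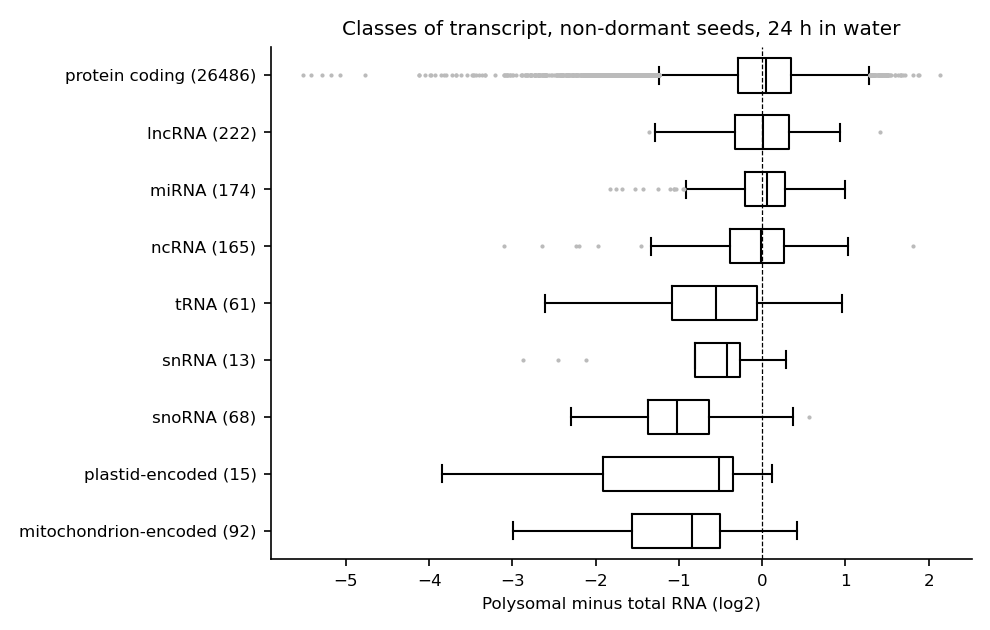
Difference between polysomal and total RNA (log2, x axis) by class of transcript, with the number of probe sets in brackets. Boxes span the quartiles with the median as a line, whiskers reach to 1.5 box lengths, and grey points lie beyond. Protein-coding, long non-coding, microRNA and other non-coding classes centre near 0, while transfer, nuclear, nucleolar and organelle-encoded RNAs sit to the left of it.

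Single members showed the shift on bright probe sets as well. SNOR30, a small nucleolar RNA, read 8.10, 8.69 and 7.51 on the polysomal arrays, against 10.35, 10.27 and 10.05 on the total RNA arrays. Its polysomal arrays all lay more than 1 log2 unit under the total RNA arrays, a difference of -2.13 ± 0.28 (adjusted p = 1.50e-06). U12, the spliceosomal RNA that recognises a minor class of introns, read 5.98, 6.53 and 4.93 on the polysomal arrays, against 9.02, 8.89 and 8.14 on the total RNA arrays. Polysomal replicate 3 was the lowest, the groups did not overlap, and the difference was -2.87 ± 0.33 (adjusted p = 1.03e-07). U6acat, another RNA of the minor spliceosome, differed by -2.12 ± 0.36 (adjusted p = 8.01e-05) and U1.5, of the major spliceosome, by -2.45 ± 0.39 (adjusted p = 3.67e-05). Copies of such RNAs are near-identical, so a probe set may read more than 1 of them. Of the trans-acting small RNA precursors, TAS3, which is cut by a microRNA, read 5.89, 7.08 and 5.80 in polysomal RNA, against 5.34, 5.65 and 5.34 in total RNA. Polysomal replicate 2 stood above the other two, and the difference of 0.81 ± 0.29 did not pass (adjusted p = 0.0515). TAS1C ran the other way, at -0.55 ± 0.20 (adjusted p = 0.0596), and also missed the threshold.

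Transcripts of the organelle genomes, which are read by ribosomes inside those organelles, were lower in polysomal RNA than those of nuclear genes. Of 92 mitochondrion-encoded probe sets 64 fell, against 8% of all probe sets, with a median of -0.85 over all 92. Of 15 plastid-encoded probe sets 7 fell, with a median of -0.52. Some organelle probe sets shared their values with each other on every array. The 92 mitochondrial ones held 90 distinct sets of values, the 15 plastid ones 13, and the 7 plastid falls 6. Leaving out 1 array at a time left 49 to 62 mitochondrial and 5 to 6 plastid calls. The plastid locus ATCG00250 read 5.65, 6.45 and 5.97 on the polysomal arrays, against 9.77, 9.94 and 9.91 on the total RNA arrays. It lay more than 3 log2 units down on every polysomal array, at -3.85 ± 0.33 (adjusted p = 1.54e-10). Among mitochondrial loci ATMG00940 read 8.32, 7.92 and 8.03 on the polysomal arrays, against 10.77, 10.95 and 10.62 on the total RNA arrays, a difference of -2.69 ± 0.17 (adjusted p = 1.21e-13). ATMG00080 read 9.89, 9.82 and 9.84 in polysomal RNA, against 10.65, 10.71 and 10.72 in total RNA, a smaller one of -0.85 ± 0.20 (adjusted p = 0.00314). In both loci the groups were apart on all arrays, and both stayed among the brighter transcripts in polysomal RNA. At many other mitochondrial loci, though not all, polysomal replicate 3 was the lowest polysomal array, unlike at these 2. Examples are ATMG00950 (8.45, 8.72 and 7.54) and ATMG01000 (9.25, 9.92 and 8.36). Of the 107 organelle probe sets 41 carried values identical on every array to those of a nuclear locus, so the values of the organelle gene and its nuclear copy are not separate measurements. Of 49 nuclear pseudogenes measured 24 were called lower, against 8% of all probe sets, and the same overlap holds for 15 of the 24. The lowest difference among transcribed pseudogenes, -2.69, equalled that of ATMG00940, and ATMG00080 shared its values with ATMG00090 on every array. Of 19 nuclear genes for mitochondrial respiration and import 2 rose, against 6.82% of all probe sets and 12.9% of the brightest bin by level. The median was 0.21, against 0.17 in that bin, and the list's median total RNA level was 9.24. The 2 were TOM20-3 (0.84 ± 0.20, adjusted p = 0.00443) and TOM20-2 (0.40 ± 0.13, adjusted p = 0.038), which import proteins at the mitochondrial surface. TOM20-3 kept its call with each array left out, and TOM20-2 lost it with any of them left out (adjusted p up to 0.139). SDH8, a subunit of succinate dehydrogenase and not on that list, read 8.14, 8.41 and 8.57 on the polysomal arrays, against 6.82, 6.77 and 7.12 on the total RNA arrays. All 3 polysomal arrays were more than 1 log2 unit above the total RNA arrays, and at 1.47 ± 0.24 (adjusted p = 5.40e-05) it was the only one of the 15 largest rises with a total RNA mean over 6.

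Genes for protein folding in the endoplasmic reticulum, the entry of the secretory pathway, had the lowest median of the nuclear gene lists. Of 11 measured, 10 differed by less than 0 and 5 fell, with a median of -0.89, against 8% lower and a median of 0.04 over all probe sets. SHD, the endoplasmic reticulum form of HSP90, read 7.44, 7.05 and 7.10 on the polysomal arrays, against 8.24, 8.45 and 8.36 on the total RNA arrays. PDIL1-2, a protein disulfide isomerase, read 7.50, 7.30 and 7.11 in polysomal RNA, against 8.42, 8.43 and 8.37 in total RNA. CNX1, the membrane-bound chaperone calnexin, read 8.01, 7.70 and 7.54 on the polysomal arrays, against 8.88, 8.81 and 8.62 on the total RNA arrays. In all 3 genes every polysomal array was below every total RNA array, and the differences were -1.15 ± 0.24 for SHD (adjusted p = 0.00124), -1.10 ± 0.20 for PDIL1-2 (adjusted p = 1.53e-04) and -1.02 ± 0.19 for CNX1 (adjusted p = 2.83e-04). The calreticulins CRT1b (-1.03 ± 0.27, adjusted p = 0.00834) and CRT1a (-0.89 ± 0.26, adjusted p = 0.0186), similar genes that probe sets may not fully separate, fell as well. The HSP70-type chaperones BIP1 (-0.93) and BIP3 (-0.89) were similar in size but did not pass, and BIP2 was at -0.10. SHD, PDIL1-2, CNX1 and CRT1b kept their calls with each array left out in turn, and CRT1a lost its call without polysomal replicate 2, polysomal replicate 3 or total RNA replicate 2 (adjusted p up to 0.0917). The list had medians of -0.34 at 6 h, -0.58 in dormant seeds and -0.37 in cordycepin, and no member differed from these conditions by limma's test of the difference.

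**Figure D3:**
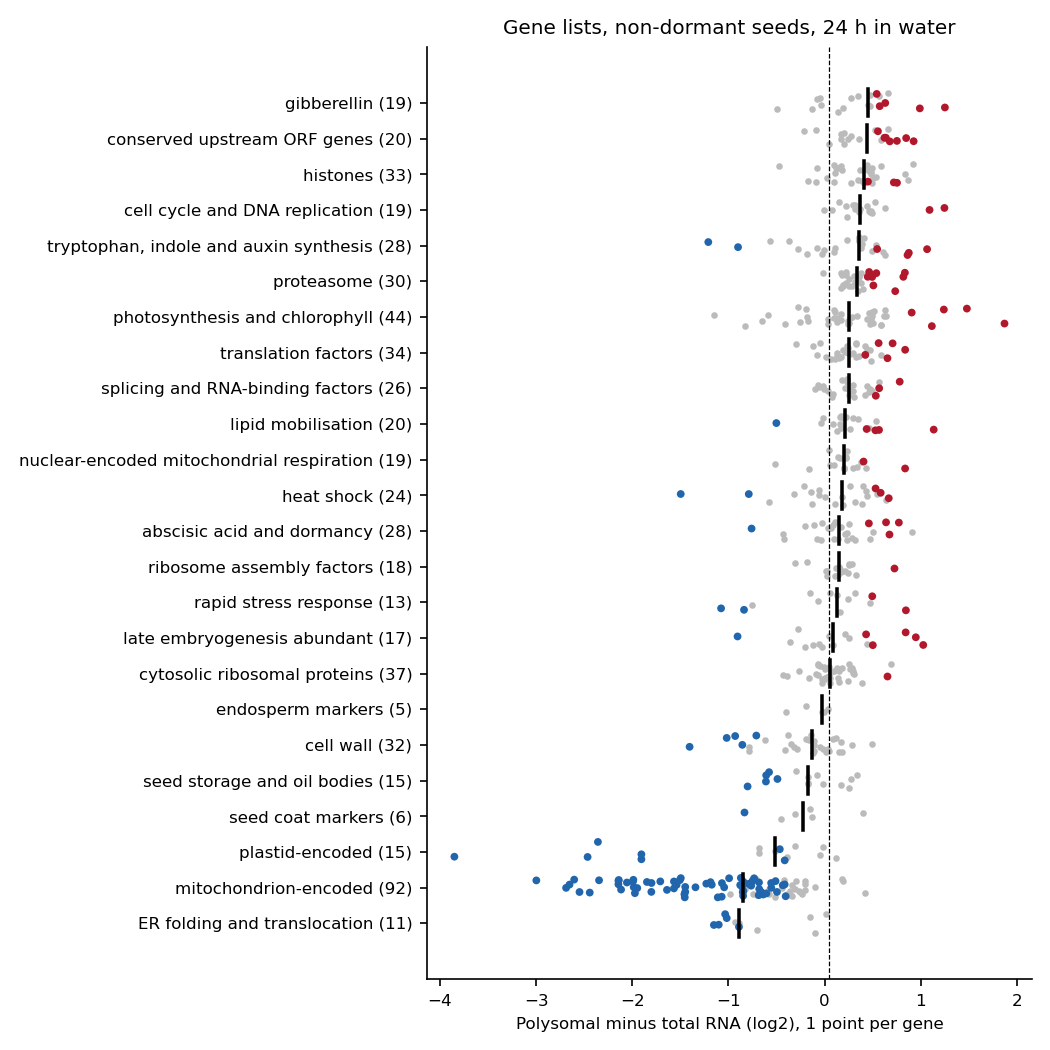
Difference between polysomal and total RNA (log2, x axis) for the members of each gene list, 1 point per gene, with the number measured in brackets and the list median as a vertical bar. Red points were called higher, blue points lower, and the dashed line marks the median of all probe sets. Endoplasmic reticulum folding and the 2 organelle lists stand to the left, gibberellin, upstream ORF and histone genes to the right.

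Cell wall proteins also pass through the secretory pathway. Of 32 cell wall genes 5 fell, against 8% of all probe sets, and the median was -0.13, with 1 to 4 falls when an array was left out. PME3, a pectin methylesterase, read 8.001, 8.10 and 7.64 on the polysomal arrays, against 9.27, 9.33 and 9.36 on the total RNA arrays. Its groups were well apart, at -1.40 ± 0.28 or 2.65-fold lower (adjusted p = 7.33e-04), and its call held with each array left out. FLA1 (-0.93 ± 0.31, adjusted p = 0.0381), FLA8 (-0.71 ± 0.24, adjusted p = 0.0395) and FLA9 (-0.86 ± 0.29, adjusted p = 0.0419), fasciclin-like arabinogalactan proteins, also fell. Each lost its call when arrays were centred on their median. With 1 array left out, FLA1 kept its call in 2 of 6 fits, and FLA8 and FLA9 each in 1. Under the other settings FLA1 passed in 6 of 10, FLA8 in 9 of 11 and FLA9 in 4 of 10. EXPA5, an expansin, fell with overlapping arrays. The 27 members that did not pass, expansins, endotransglucosylases, mannanases and cellulose synthases among them, ran from -0.79 to 0.49.

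Seed storage transcripts, made during maturation and kept in the dry seed, were lower for 5 of 15 genes, against 8% of all probe sets, with a median of -0.17. PAP85, a vicilin-like storage protein, read 8.91, 9.27 and 9.05 on the polysomal arrays, against 9.79, 9.86 and 9.99 on the total RNA arrays. CRU3, the cruciferin, read 10.84, 11.19 and 10.81 in polysomal RNA, against 11.42, 11.59 and 11.65 in total RNA. All polysomal arrays of both genes were below all total RNA arrays, and the differences were -0.80 ± 0.12 (adjusted p = 1.40e-05) and -0.61 ± 0.12 (adjusted p = 7.91e-04). CRA1, the cruciferin also called CRU1, fell by 0.58 (adjusted p = 0.00754), a call lost without polysomal replicate 3 (adjusted p = 0.103), and SESA1, a 2S albumin, differed by -0.49 ± 0.14 (adjusted p = 0.0147), lost without polysomal replicate 1 or total RNA replicate 2. CRU2, also a cruciferin, fell with overlapping arrays. The oleosins OLEO1 (-0.02), OLEO4 (0.17) and OLEO2 (0.27), whose proteins coat oil bodies, did not pass. With 1 array left out at a time, 3 to 5 of the list fell and the median of the list ranged from -0.35 to 0.01.

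Late embryogenesis abundant genes, whose proteins protect the dry embryo, went both ways. Of 17, 5 rose and 1 fell, against 6.82% and 8% of all probe sets, and the median was 0.09. ATECP31 read 7.50, 8.41 and 8.27 on the polysomal arrays, against 6.44, 7.47 and 7.202 on the total RNA arrays. COR47, a dehydrin, read 8.43, 8.37 and 8.86 in polysomal RNA, against 7.60, 7.82 and 7.398 in total RNA. ECP63, a further member of the group, read 9.13, 8.96 and 9.69 on the polysomal arrays, against 10.29, 10.20 and 9.996 on the total RNA arrays. ATECP31 (1.03 ± 0.20, adjusted p = 6.54e-04) and COR47 (0.95 ± 0.23, adjusted p = 0.0048) had every polysomal array above every total RNA array, for ATECP31 by a narrow margin, and ECP63 (-0.91 ± 0.16, adjusted p = 1.41e-04) was low on every one. LEA14 (0.84 ± 0.17), LEA4-5 (0.50 ± 0.12) and LEA18 (0.43 ± 0.14) were the other rises. All of these but LEA18 kept their call with each array left out.

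Heat shock genes held 3 rises and 2 falls among 24, against 6.82% higher and 8% lower over all probe sets, and a median of 0.18. The rises numbered 1 to 4 with 1 array left out and 0 to 5 under the other settings. HSP70 read 9.11, 9.63 and 8.88 on the polysomal arrays, against 8.52, 8.52 and 8.59 on the total RNA arrays. The cytosolic chaperone was higher on all polysomal arrays, by 0.67 ± 0.16 (adjusted p = 0.0038), though the call was lost without polysomal replicate 2 (adjusted p = 0.0595). HSP18.2, a small cytosolic heat shock protein, read 2.25, 2.81 and 3.32 on the polysomal arrays, against 4.70, 4.77 and 3.41 on the total RNA arrays. Polysomal replicate 3 and total RNA replicate 3 lay within 0.1 of each other, the groups did not overlap, and the difference was -1.497 ± 0.33 (adjusted p = 0.00218). HSP90.1 and HSFB2A, a cytosolic chaperone and a heat shock transcription factor, were the other rises, with overlapping arrays. HSP21, of plastids, differed by -0.79 ± 0.22 (adjusted p = 0.0151) at levels near the bottom of the scale, and lost its call with 3 of the 6 arrays left out.

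Transcripts of ribosomal proteins lay close to the average in their loading. Of 37 cytosolic ribosomal protein genes 1 rose, AT3G11250 (0.65), and 0 fell, against 6.82% and 8% of all probe sets. The median of the list was 0.05. RPS5A, of the small subunit, read 10.99, 10.90 and 10.78 on the polysomal arrays, against 10.61, 10.63 and 10.52 on the total RNA arrays. Every polysomal array was higher, but the difference of 0.30 ± 0.16 did not pass (adjusted p = 0.204). ATARCA, the ribosome-bound scaffold RACK1A, differed by 0.25 ± 0.14 (adjusted p = 0.22). Among 34 translation factors 5 rose, against 6.82% of all probe sets, and the median was 0.25. In the brightest bin by level, 12.9% rose and the median was 0.17. The ribosomal protein, translation factor and ribosome assembly lists were bright, with median total RNA levels of 10.37, 9.64 and 9.50. EIF4E, which binds the cap of messenger RNAs, read 9.48, 9.39 and 9.92 on the polysomal arrays, against 8.89, 8.80 and 8.98 on the total RNA arrays. The polysomal arrays were all higher, by 0.71 ± 0.21 (adjusted p = 0.0212), a call lost without polysomal replicate 3 and without total RNA replicate 1 or 2. The scaffold eIFiso4G1 (0.56 ± 0.17, adjusted p = 0.025) and the poly(A)-binding protein PAB8 (0.42 ± 0.14, adjusted p = 0.0366) also rose. With 1 array left out, 0 to 3 members of the factor list passed. Of 18 ribosome assembly factors 1 rose, against 6.82% of all probe sets, and the median was 0.15. TOZ (0.33 ± 0.15) and NAP57 (-0.31 ± 0.15), which act in ribosomal RNA maturation, had non-overlapping arrays in opposite directions and did not pass.

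Genes with a conserved upstream reading frame, a short peptide code ahead of the main one that is known to restrain translation of the main protein, had a median of 0.44, and 7 of 20 rose against 6.82% of all probe sets. NAC082, a transcription factor of the ribosomal stress response, read 8.22, 8.40 and 8.20 on the polysomal arrays, against 7.55, 7.48 and 7.92 on the total RNA arrays. All polysomal arrays were higher, by 0.62 ± 0.18 (adjusted p = 0.0163). The polyamine oxidase PAO2 (0.75 ± 0.25, adjusted p = 0.0376) and HSF4, a heat shock factor also called HSFB1 (0.68 ± 0.21, adjusted p = 0.0248), rose too. Values of 11 of the 20 members, 4 of the called ones among them, were identical on every array to those of another locus, PAO2 to AT2G43018 and HSF4 to AT4G36988. With single arrays left out 2 to 7 members passed, and under the other settings 2 to 7.

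Histone genes, which package newly made DNA, had a median of 0.41, and 3 of 33 rose, against 6.82% of all probe sets. Between 0 and 5 rose in the fits without 1 array. HTA7, a histone H2A gene, read 7.54, 7.81 and 7.95 on the polysomal arrays, against 7.19, 6.67 and 7.19 on the total RNA arrays. It was higher on all polysomal arrays, by 0.75 ± 0.18 (adjusted p = 0.00457), and lost its call only without total RNA replicate 2 among the arrays left out (adjusted p = 0.0605). HTA6, also an H2A gene, differed by 0.72 ± 0.23 (adjusted p = 0.0344), a call lost with any of the 6 arrays left out. The third was AT1G06760 (0.45). Histone genes resemble one another, and probe sets may read several of them. Among 26 splicing and RNA-binding factors 3 rose, against 6.82% of all probe sets, with a median of 0.25: the polypyrimidine tract-binding genes PTB1 (0.78 ± 0.25, adjusted p = 0.0306) and PTB2 (0.53 ± 0.17, adjusted p = 0.0272) and the SR-type splicing factor SCL33 (0.57 ± 0.18, adjusted p = 0.0273). None of the 3 passed after quantile normalisation over all arrays, and with 1 array left out 0 to 3 of the list passed. The median total RNA level of this list was 8.70, and in the brightest bin by level 12.9% rose, with a median of 0.17.

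Subunits of the proteasome, which breaks down tagged proteins, lay mostly above 0. Of 30 genes 29 differed by more than 0, against 15000 of all 27827 probe sets, 8 rose, against 6.82%, and the median was 0.33. The list was bright, with a median total RNA level of 9.18. In the brightest bin by level, 12.9% rose and the median was 0.17. ATS9, the lid subunit RPN6, read 9.82, 10.15 and 9.62 on the polysomal arrays, against 9.24, 9.003 and 8.90 on the total RNA arrays. EMB2719, the lid subunit RPN3A, read 9.49, 9.83 and 9.27 in polysomal RNA, against 8.87, 8.82 and 8.70 in total RNA. Both were higher on each polysomal array, by 0.82 ± 0.21 (adjusted p = 0.007) and 0.73 ± 0.19 (adjusted p = 0.00824), and both lost the call without polysomal replicate 2 alone (adjusted p = 0.0533 and 0.0646). PAB1, of the core particle, differed by 0.83 ± 0.24 (adjusted p = 0.0177). The number called ranged from 1 to 8 with an array left out and from 3 to 12 under the other settings. At 6 h, 21 of the 30 had been called higher and the median was 0.50. No member differed between the times by the test of that difference.

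Enzymes that turn stored oil into sugar had a median of 0.21, with 4 of 20 higher and 1 lower, against 6.82% and 8% of all probe sets. Their median total RNA level was 8.99, and in the brightest bin by level 12.9% rose, with a median of 0.17. PMDH2, a malate dehydrogenase of peroxisomes, read 4.19, 4.05 and 4.64 on the polysomal arrays, against 3.42, 2.64 and 3.41 on the total RNA arrays. Polysomal arrays were all above total RNA arrays, at 1.13 ± 0.27 (adjusted p = 0.00459), a call lost without total RNA replicate 2 (adjusted p = 0.0594). ACX1 (0.57 ± 0.17), ACX4 (0.53 ± 0.17) and AIM1 (0.44 ± 0.14), of fatty acid beta-oxidation, were the other rises. SDP1, the lipase that starts oil breakdown, read 8.13, 7.70 and 7.85 in polysomal RNA, against 8.43, 8.52 and 8.23 in total RNA. It was lower on every polysomal array, with a difference of -0.50 ± 0.15 (adjusted p = 0.0179). ACX1, ACX4, AIM1 and SDP1 each lost their call in 4 of the 6 fits without 1 array, where 0 to 5 members rose and 0 to 1 fell. ICL and MLS, the glyoxylate cycle enzymes, were at -0.01 and 0.08.

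Photosynthesis and chlorophyll genes held 5 rises among 44, against 6.82% of all probe sets, and a median of 0.26. RBCS3B, a small subunit of Rubisco, read 3.48, 4.37 and 3.92 on the polysomal arrays, against 2.07, 1.29 and 2.79 on the total RNA arrays. RBCS2B, a near-identical copy whose signal it may share, read 3.26, 2.90 and 4.12 in polysomal RNA, against 1.85, 1.88 and 2.11 in total RNA. POR C, an enzyme of chlorophyll synthesis, read 6.26, 5.94 and 6.68 on the polysomal arrays, against 5.53, 4.55 and 5.46 on the total RNA arrays. In these genes each polysomal array was above each total RNA array, and the differences were 1.87 ± 0.35 (adjusted p = 3.49e-04), 1.48 ± 0.40 (adjusted p = 0.0111) and 1.11 ± 0.37 (adjusted p = 0.0379). The total RNA levels of both Rubisco genes lay within the lower quartile of the arrays, so the size of their rise is uncertain. CAB3, a light-harvesting protein also called LHCB1.2, differed by 1.24 ± 0.41 (adjusted p = 0.0384) and PSAL, of photosystem I, by 0.91 ± 0.27 (adjusted p = 0.0195). With 1 array left out 1 to 5 members rose, and CAB3 lost its call in 5 of the 6 such fits, PSAL in 4 and POR C in 3. PSAD-2, another photosystem I subunit, was at -1.15 without passing. At 6 h the median of the list was -0.08, and no member passed the test between times.

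The largest rises lay at low to middle levels. MT1B, a metallothionein, read 4.85, 2.04 and 3.95 on the polysomal arrays, against 1.53, 1.21 and 1.68 on the total RNA arrays. Polysomal replicate 2 was far below the other polysomal arrays and still above total RNA, and the difference was 2.14 ± 0.47 (adjusted p = 0.00188). GSTU8, a glutathione transferase, read 5.62, 5.69 and 6.46 in polysomal RNA, against 3.92, 3.86 and 4.85 in total RNA. FPS2, a farnesyl diphosphate synthase, read 4.93, 4.26 and 5.05 on the polysomal arrays, against 3.62, 2.27 and 3.37 on the total RNA arrays. Both kept their groups apart, at 1.71 ± 0.35 (adjusted p = 9.75e-04) and 1.66 ± 0.28 (adjusted p = 7.86e-05). The further rises were AHP2, a homologue of the meiotic protein Hop2 (1.89 ± 0.34), GOX1, a glycolate oxidase (1.60 ± 0.31), GATA20, a zinc finger transcription factor (1.54 ± 0.26), CRR7, for the plastid NDH complex (1.52 ± 0.24), UGT72E2, a glucosyltransferase of lignin precursors (1.46 ± 0.40), MT1A, a near copy of MT1B (1.45 ± 0.37), CML23, a calmodulin-like protein (1.43 ± 0.25), ERF8, of the ethylene response factor family (1.42 ± 0.28), and ORC1B, of the complex that marks replication origins (1.37 ± 0.26). Of the 15 largest rises, RBCS2B lost its call without polysomal replicate 3, and MT1A without that array or total RNA replicate 2.

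Regulators of dormancy and abscisic acid, the hormone that holds it, held 4 rises and 1 fall among 28, against 6.82% and 8% of all probe sets, with a median of 0.15. In the fits without 1 array 1 to 4 rose and 0 fell. SNRK2.3, a kinase of abscisic acid signalling, read 8.77, 8.85 and 8.58 on the polysomal arrays, against 8.04, 7.89 and 7.95 on the total RNA arrays. It was higher on each polysomal array, by 0.77 ± 0.17 (adjusted p = 0.00151), and kept its call with every array left out. Its homologue SNRK2.2 (0.64 ± 0.17, adjusted p = 0.0115) and the phosphatase PP2CA (0.46 ± 0.16, adjusted p = 0.044), a brake on the same pathway, also rose, as did NCED5, of abscisic acid synthesis, with overlapping arrays. PP2CA lost its call in 5 of the 6 fits without 1 array (adjusted p up to 0.281), and SNRK2.2 without total RNA replicate 2 (adjusted p = 0.0909). DOG1 read 3.24, 3.41 and 3.38 on the polysomal arrays, against 3.90, 4.44 and 3.98 on the total RNA arrays. The groups did not overlap, with total RNA replicate 2 the highest, and the difference was -0.76 ± 0.27 (adjusted p = 0.049). That call was lost with any of the 6 arrays left out (adjusted p up to 0.22) and under 5 of the other settings. In dormant seeds DOG1 differed by -1.21 (adjusted p = 0.00458), at 6 h by 0.07, and the difference between the dormancy states did not pass (0.45, adjusted p = 1.000).

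Gibberellin genes, of the hormone that promotes germination, had a median of 0.45, and 5 of 19 rose, against 6.82% of all probe sets. RGL1, a DELLA repressor of the response, read 6.48, 6.93 and 6.25 on the polysomal arrays, against 5.39, 5.54 and 4.96 on the total RNA arrays. Its lowest polysomal array exceeded its highest total RNA array, and the difference was 1.25 ± 0.29 (adjusted p = 0.00317), called with each array left out. GA20OX2, of gibberellin synthesis (0.99 ± 0.27, adjusted p = 0.0119), the DELLA gene RGA1 (0.63 ± 0.21, adjusted p = 0.0381) and the receptors GID1A (0.57 ± 0.15, adjusted p = 0.00733) and GID1C (0.54 ± 0.18, adjusted p = 0.042) were the other rises. With 1 array left out 1 to 4 of them passed.

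Tryptophan synthesis and the routes to auxin and indole compounds were mixed: of 28 genes 4 rose and 2 fell, against 6.82% and 8% of all probe sets, with a median of 0.35. TSB2, a tryptophan synthase subunit, read 7.74, 8.13 and 7.53 on the polysomal arrays, against 6.87, 7.01 and 6.94 on the total RNA arrays. MYB34, a regulator of indole glucosinolates, read 6.76, 7.12 and 7.68 in polysomal RNA, against 5.93, 6.21 and 6.22 in total RNA. YUC2, of auxin synthesis from tryptophan, read 1.92, 2.32 and 1.96 on the polysomal arrays, against 3.60, 3.10 and 3.13 on the total RNA arrays. TSB2 (0.86 ± 0.17, adjusted p = 6.86e-04) and MYB34 (1.06 ± 0.36, adjusted p = 0.0391) were higher on all polysomal arrays, and YUC2 (-1.21 ± 0.22, adjusted p = 2.27e-04) was lower on all of them. The near copy TSB1 (0.55 ± 0.16, adjusted p = 0.021) and the nitrilase NIT3 (0.88 ± 0.20, adjusted p = 0.00234) rose, and TAR2, which makes the precursor that YUC enzymes use, fell (-0.90 ± 0.30, adjusted p = 0.0374). TSB2, NIT3 and YUC2 kept their calls with each array left out, TSB1 lost its call in 3 of the 6 such fits, MYB34 kept its call in 1 of them, and TAR2 in none (adjusted p up to 0.0995).

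Of 19 cell cycle and replication genes 2 rose, against 6.82% of all probe sets, and 18 differed by more than 0, against 15000 of 27827, with a median of 0.36. PRL, the replication helicase subunit MCM7, read 7.21, 7.13 and 7.03 on the polysomal arrays, against 6.02, 6.14 and 5.95 on the total RNA arrays. CDKB1;1, a mitotic kinase, read 3.32, 3.32 and 3.47 in polysomal RNA, against 2.26, 1.94 and 2.18 in total RNA. Every polysomal array was above every total RNA array in both genes, CDKB1;1 at levels near the dim end, and the differences were 1.09 ± 0.25 (adjusted p = 0.00248) and 1.25 ± 0.26 (adjusted p = 9.37e-04), called with each array left out. Rapid stress response genes held 2 rises and 2 falls among 13, against 6.82% and 8%. RAV1, a transcription factor, differed by -1.08 ± 0.31 (adjusted p = 0.0155), CML37, a calmodulin-like protein, by -0.84 ± 0.27 (adjusted p = 0.0307) and CZF1, a zinc finger protein, by 0.49 ± 0.17 (adjusted p = 0.0489), while the zinc finger gene RHL41 rose with overlapping arrays. With 1 array left out 0 to 2 rises and 0 to 2 falls passed.

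Of 11 markers of the tissues around the embryo 1 passed the test, against 14.8% of all probe sets. None of 5 endosperm markers passed limma's test, 1 of them, EPR1, an extensin-like gene, at an unadjusted p under 0.05 (-0.41 ± 0.14, adjusted p = 0.0515), and the others ran from -0.20 (NAC025) to 0.04 (EXPA2), with the dormancy gene E12A11, also called MFT, at -0.03. Among 6 seed coat markers MUM2, a mucilage galactosidase, fell (-0.84 ± 0.21, adjusted p = 0.00621), with total RNA and polysomal levels near the dim end, and the others ran from -0.45 to 0.40. Without total RNA replicate 3 MUM2 did not pass (adjusted p = 0.0595).

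**Figure D4:**
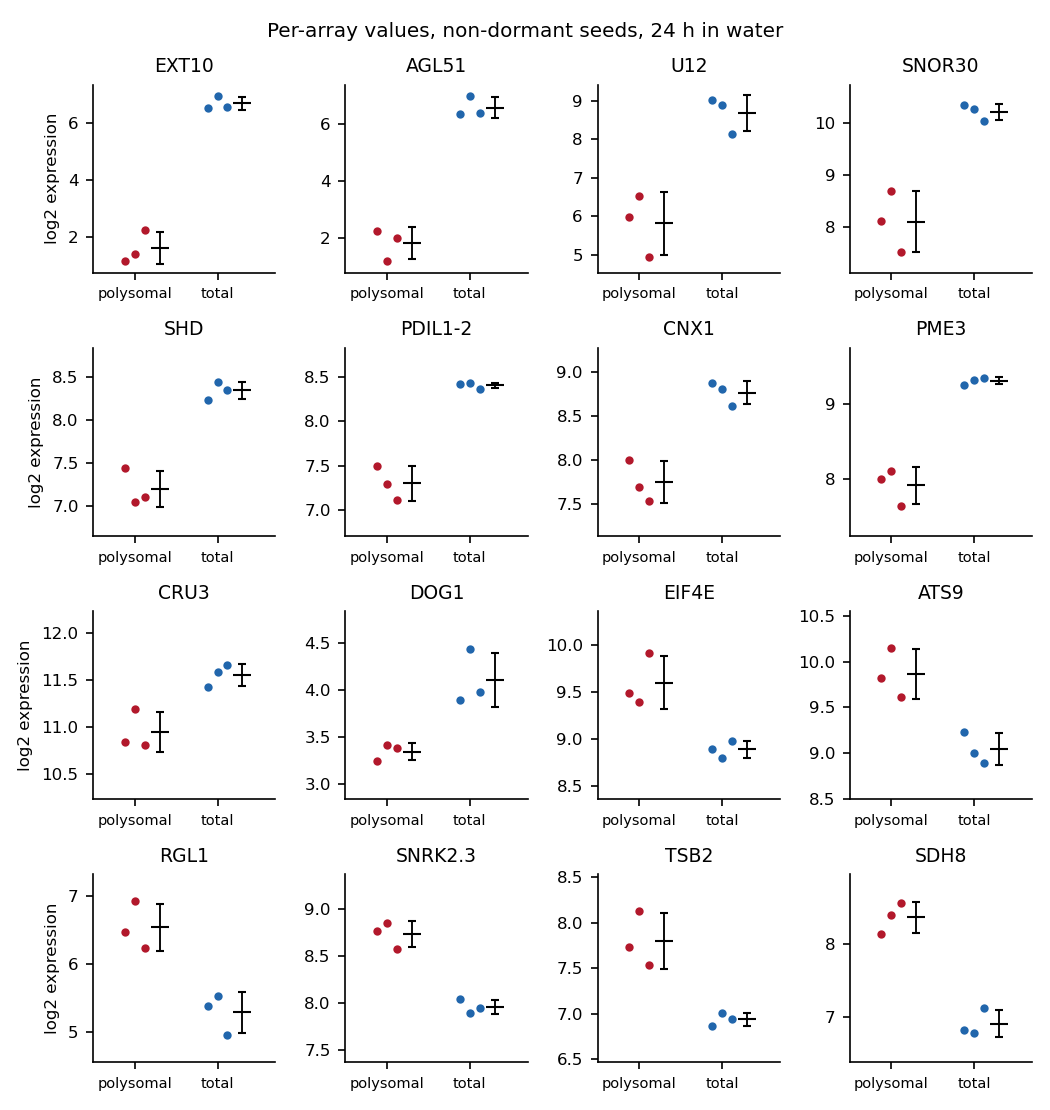
Log2 level on each array for 16 genes, with the 3 polysomal arrays (red) left of the 3 total RNA arrays (blue) and bars for mean ± SD. The log2 axis of each panel has its own range. Genes of the first 2 rows, CRU3 and DOG1 are lower in polysomal RNA and the remaining 6 higher, without overlap.

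The same comparison was made in the other conditions, which share no array with it or with each other. There, 6926 probe sets (24.9%) passed in non-dormant seeds at 6 h, 4607 (16.6%) in dormant seeds at 24 h and 3406 (12.2%) in non-dormant seeds in cordycepin at 24 h. Higher calls made up 13.2%, 7.7% and 4.47% of all probe sets in these conditions, and lower calls 11.6%, 8.85% and 7.77%. Of the 2225 probe sets lower in non-dormant seeds at 24 h in water, 1612 (72.45%) were also lower at 6 h, 1462 (65.71%) in dormant seeds and 1379 (61.98%) in cordycepin, 1084 in all 3 and 352 in none. Of the 1898 higher, 1223 (64.44%), 987 (52%) and 708 (37.3%) were also higher in those conditions, 433 in all 3 and 399 in none. Of all 27827 probe sets, 23.67%, 16.07% and 12.05% were called there in the direction of their own difference at 24 h in water. In all 3 it was 6.875%, and 67.78% were called in none. The groups with 2 polysomal arrays have less precision. All these comparisons came from 1 fit with a shared variance for each probe set, so their calls were not fully independent. How much this added to the shared calls was not tested. Across probe sets the differences correlated at 0.786 with those at 6 h, 0.802 with those in dormant seeds and 0.826 with those in cordycepin (Pearson, n = 27827 probe sets, which are not independent replicates).

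Whether the loading differed between conditions was tested as the difference of the 2 differences. Between 24 h and 6 h, 47 probe sets (0.169%) passed, 38 (0.137%) with a higher difference at 24 h and 9 (0.0323%) with a lower one, and 1738 had an unadjusted p under 0.05. Of the 38, 37 lay below 0 at 6 h, 33 of them called, while 11 were called higher and 2 lower at 24 h. Leaving out 1 array at a time left 12 to 37 calls: 37 and 36 without polysomal replicate 1 or 2 of 24 h, 17 without its polysomal replicate 3, 20, 12 and 26 without its total RNA replicate 1, 2 or 3, and 20 to 29 without any array of 6 h. AGP31, an arabinogalactan protein of the cell wall, read 8.97, 8.75 and 8.69 on the polysomal arrays, against 9.15, 9.35 and 8.92 on the total RNA arrays at 24 h. At 6 h it averaged 3.03 ± 0.29 in polysomal RNA and 5.92 ± 0.32 in total RNA (SD, n = 3 each). The difference between polysomal and total RNA was -0.34 ± 0.26 at 24 h, where the arrays overlapped, and -2.88 at 6 h. The 2 differed by 2.54 ± 0.36 (adjusted p = 5.21e-04).

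HCA2, a Dof transcription factor, read 6.82, 6.33 and 6.75 on the polysomal arrays, against 6.76, 6.48 and 6.53 on the total RNA arrays at 24 h. Its 6 h means were 3.36 ± 0.19 in polysomal RNA and 5.47 ± 0.28 in total RNA, so that the difference was near 0 at 24 h and -2.10 at 6 h (2.15 ± 0.35, adjusted p = 0.00183). FLA2, a fasciclin-like protein, read 6.99, 6.95 and 6.23 in polysomal RNA, against 7.48, 7.58 and 7.47 in total RNA at 24 h. Against those polysomal values, it averaged 3.17 ± 0.22 in polysomal RNA at 6 h and 3.03 ± 0.48 in dormant seeds (SD, 3 and 2 arrays), while total RNA averaged 6.30 and 6.34 there. Its difference at 24 h, -0.79 ± 0.30, exceeded that at 6 h by 2.35 ± 0.43 (adjusted p = 0.0104) and that in dormant seeds by 2.52 ± 0.46 (adjusted p = 0.0458).

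RTFL9, of a family of small peptides that limit organ growth, was called higher at 24 h (1.18 ± 0.27, adjusted p = 0.00312) and lay at -0.88 at 6 h. Its call at 24 h was lost without total RNA replicate 2 (adjusted p = 0.0509). The other symbol genes with the largest change over time were the transcription factor GATA6 (3.04 ± 0.65), the cyclin cycp3;1 (2.54 ± 0.55), the cell wall gene PME1 (2.17 ± 0.45) and the pectate lyase-like gene PMR6 (2.07 ± 0.45). Between non-dormant and dormant seeds at 24 h, 2 probe sets (0.00719%) passed, FLA2 and AT5G09820, and 1120 had an unadjusted p under 0.05. No probe set passed that test without polysomal replicate 1 or any total RNA array of the non-dormant seeds, nor without polysomal replicate 1 or any total RNA array of the dormant seeds, 1 passed without polysomal replicate 3 of the non-dormant seeds, and 2 and 3 passed without the other polysomal arrays. Between water and cordycepin 0 probe sets (0%) passed limma's test, and 752 had an unadjusted p under 0.05.

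**Figure D5:**
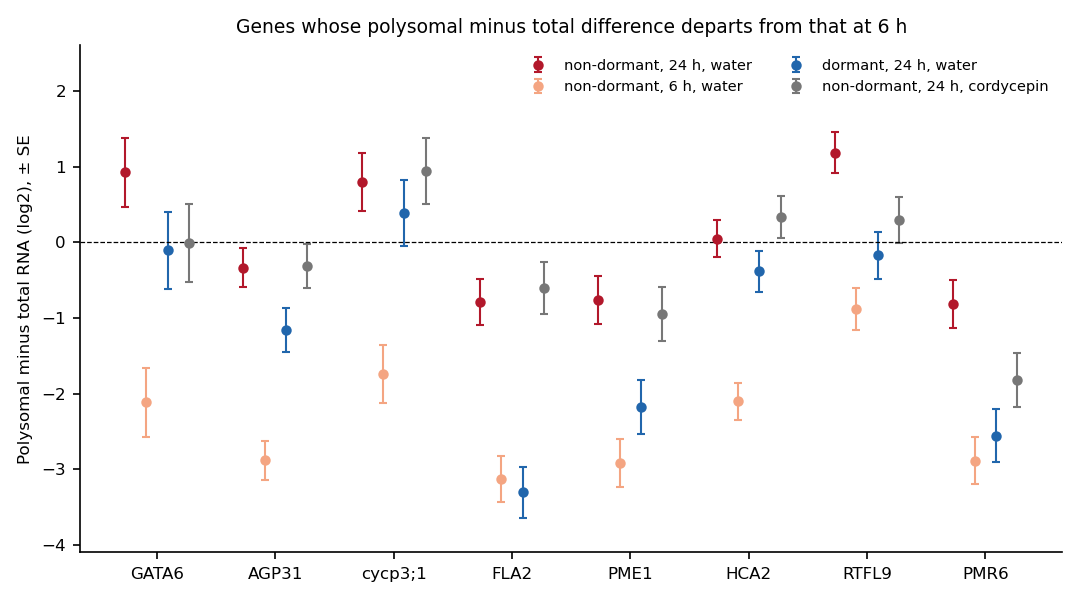
Difference between polysomal and total RNA (log2 ± SE, y axis) in 4 conditions for the 8 symbol genes with the largest change between 24 h and 6 h. In each gene the non-dormant seeds at 24 h in water (dark red, 3 arrays of each RNA type) lie above those at 6 h (light red, 3 of each). Dormant seeds (blue) and cordycepin (grey) have 2 polysomal and 3 total RNA arrays.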

How the data were processed

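RNA was measured on 45 arrays of whole seeds in 16 groups, 13 of 3 arrays and 3 polysomal groups of 2. The deposited values are log2 levels made with RMA, per the submitters' processing notes. RMA scales arrays to a like distribution, so total polysome content cannot be read from the values. The deposited arrays were not fully alike, with medians from 3.86 to 4.32 over the series. For RMA's version, the array type and the build behind the probe sets, nothing is given in the sources used here. Per the labels' protocols RNA was extracted with TriPure and RNeasy and labelled with a 3′ kit. Locus names were matched to the RefSeq table of assembly TAIR10.1 (27241 of 27827 matched, 10556 with a symbol).

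Each of the 16 groups got a mean in 1 limma fit over all 45 arrays (limma 3.58.1, R 4.3.3). Polysomal minus total RNA and the differences of such differences were tested with limma's moderated test, with Benjamini-Hochberg adjustment over all 27827 probe sets and a threshold of 0.05 on the adjusted p. SE values are limma's moderated ones. The spread is that between bulks over all groups, and the number of arrays limits the precision. Groups followed the titles. Deviations of replicates with the same number correlated at 0.0271, 0.0937 and 0.301 between polysomal and total RNA. Numbers were not taken to pair arrays in the main fit. Replicates of unlike number were not compared, so these values cannot decide whether numbers mark shared blocks. A replicate block gave 4660 calls over all arrays, 3621 within RNA type and 4468 with the compared arrays only, against 4123 without a block.

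Members and gene lists were chosen with earlier results of these data known. Lists are described by counts and medians. Genes named were the 15 largest rises and falls with a symbol and without overlap, up to 6 called members of each list without overlap (3 by p in lists with under 2 calls), the 8 largest changes between conditions, and DOG1. Genes named beside these, among them those with overlapping arrays and loci without a symbol, were chosen after their values were seen. Alternatives changed the normalization, the filter on dim probe sets, the arrays in the fit, the variance model and the replicate block, or left out 1 array. The tests were checked on simulated data.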

Additional observations from a re-analysis of the deposited data

Results flagged for a closer look

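Changes in loading between conditions, by limma's test of the difference between 2 differences, were taken up here because the effect differed between groups under the same contrast. Between 24 h and 6 h of non-dormant seeds in water, GATA6 changed by 3.04, AGP31 by 2.54, cycp3;1 by 2.54, FLA2 by 2.35, PME1 by 2.17, HCA2 by 2.15, RTFL9 by 2.07 and PMR6 by 2.07 (log2, 24 h minus 6 h). Between non-dormant and dormant seeds at 24 h, FLA2 changed by 2.52 and AT5G09820 by 1.71 (log2, non-dormant minus dormant). AGP31 and HCA2 passed in all 23 alternative fits (11 other settings and 12 fits without 1 array each) and FLA2 in 22 of 23, missing after quantile normalization over all arrays (adjusted p = 0.0927). RTFL9 passed in 18 of 22, PME1 in 12 of 23, GATA6 in 10 of 23, cycp3;1 in 8 of 22 and PMR6 in 8 of 23. For the dormancy states FLA2 passed in 7 of 22 and AT5G09820 in 4 of 21. With groups of 2 or 3 arrays no array was tested as standing apart.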

How the results depend on the processing

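The count of 4123 called probe sets lay between 2804 (quantile normalization over all arrays) and 5844 (array weights) under the other settings and between 2231 and 3176 with 1 array left out. At 2-fold or more the 1692 calls became 691 when dim probe sets, those under the median mean, were left out, and 1303 to 1771 with 1 array left out. The 47 changes between 24 h and 6 h became 16 after quantile normalization over all arrays, 27 within each RNA type, 26 after centring arrays on their median, 162 with array weights, 76 with a replicate block within RNA type, and 12 to 37 with 1 array left out. The 2 changes between dormancy states became 0 with the compared arrays only, after either quantile normalization, after centring, and with a replicate block over all or over the compared arrays, 1 with a trended robust variance, and 0 to 3 with 1 array left out. Between water and cordycepin limma called 0 in each of these fits. Centring moved the median difference of all probe sets to 0.12 (polysomal minus total) and that between times to -0.26. The replicate block over all arrays gave 4660 calls. Differences near 0 changed sign: NAC025 to 0.032 (array weights), E12A11 to 0.043 (centring) and from -0.23 to 0.17 over the fits without 1 array, HCA2 to -0.10 (quantile over all arrays) and from -0.046 to 0.20 over those without 1 array. The causes were not tested. Of the 118 called genes named by the rule, 57 kept their call with each array left out and 52 in all settings, and none changed sign while called. Falls to the dimmest levels have an uncertain size.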

Other observations

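Families of genes with a shared symbol, counted after the values were seen and with no test, held further shifts among the 64 families with at least 20 members measured. Calcium-dependent protein kinases (CPK) held 7 lower of 29, cation/proton exchangers (CHX) 6 of 28, Pumilio RNA-binding proteins (PUM) 6 of 25, receptor-like proteins (RLP) 7 of 52 and cytochrome P450 genes (CYP) 27 lower and 1 higher of 229. Over all probe sets 8% were lower and 6.82% higher. Families of transcription factors stood on the other side: GATA genes held 5 higher of 22, homeobox genes (HB) 6 of 37, ERF genes 4 of 25 and NAC genes 9 of 79. Tau-class glutathione transferases (GSTU) held 5 higher of 27.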
